A study of Homo sapiens with 28 samples.

Results

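The sterol and fatty acid synthesis genes are the enzymes that build cholesterol and long-chain fatty acids from acetyl-CoA, with the sensors that set their transcription. A list of 36 such genes was read gene by gene, each through its brightest probe set (the highest mean of the 28 arrays) among those annotated to that gene alone. Of the 36, 31 were measured, out of 11676 genes in all. CYP51A1, FADS1 and ELOVL1 had only probe sets shared with another gene symbol and were not used, and FDFT1 and ACSL3 were not analysed here. The cells were 7 established lines of acute myeloid leukaemia (AML): MOLM13, THP1, NOMO1, SHI1, SKNO1, SKM1 and GDM1. For 96 hours 2 cultures of every line received 1 µM GSK3484862, which inhibits DNMT1, the enzyme that copies DNA methylation to new strands, and 2 received the vehicle, 0.1% DMSO. Their RNA was read on U133 Plus 2.0 expression arrays (Affymetrix). The series therefore held 14 groups and 28 arrays, with a single dose, a single time point and leukaemia cultures without normal blood cells beside them.

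Signals are log2 values, so a difference of 1 is a 2-fold difference, and the lowest value on any array was a floor of 2.13. A change is the log2 signal with GSK3484862 minus that with DMSO, given with its standard error from the fit, and a gene rose or fell only where its adjusted p was under 0.05. That p comes from limma fitted to all genes and lines together, with Benjamini-Hochberg adjustment over all genes. The array medians lay between 8.33 and 8.51, and duplicates correlated across genes at r = 0.990 to 0.998, lowest in SKM1. Of 9 blood cell markers listed, 8 were measured, and 7 of these rose on average over the lines (23.2% of all genes rose) while none fell (28.6% of all genes fell). The pan-leukocyte gene PTPRC had DMSO levels of 11.23 to 12.96, and the myeloid granule gene MPO rose by 2.95 in GDM1 and 2.74 in MOLM13. Of the markers of other cell types, 3 of 8 for T, B and NK cells were measured, of which NCAM1 fell by an average of -0.26 and none rose. Of 11 for epithelium, stroma and endothelium 3 were measured, and PECAM1 and KRT8 rose, by 0.71 and 0.38. The single one measured of 7 for hepatocytes and adipocytes, FABP4, rose by an average of 1.00. It passed only in SKM1, at 4.31, and ran from -0.43 in NOMO1 to 1.65 in SHI1 in the other lines. Whether the shift in these markers bears on the lipid genes was not tested. The arrays read bulk cultures, so fewer cells with a transcript and less transcript per cell cannot be told apart.

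Cells make cholesterol by condensing acetyl-CoA to mevalonate, turning it into isoprenoid units, joining these into squalene and closing and trimming the ring. Fatty acids start from the same acetyl-CoA, which is carboxylated to malonyl-CoA, built up to palmitate and then lengthened and desaturated. When sterols run low in the endoplasmic reticulum, SCAP escorts the SREBP factors, encoded by SREBF1 and SREBF2, to the Golgi, where they are cut free to switch on these genes. INSIG1 holds SCAP back when sterols are plentiful. Leukaemia cells, like other dividing cells, use both products for new membranes.

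Promoter windows, from 250 bases before to 50 bases after the start, were found in RefSeq (GRCh38.p14) for 28 of the 31 genes, all but SQLE, ACAT2 and FASN. The motif CCAAT, which the factor NF-Y is known to bind beside SREBP, was searched on both strands. It lay in at least 1 window of 22 of the 28 genes (78.6%), against 43.6% of 9563 measured genes. Some genes have several windows, and by window it lay in 26 of 38 (68.4%), against 34.6% of all 35116 windows. The sterol regulatory element TCACNCCAC, also on both strands, lay in a window of 1 of the 28 genes (3.57%), against 1.5% of measured genes. With the highest window of each gene, the median CpG observed over expected was 0.856 for the lipid genes and 0.871 for measured genes. TM7SF2 and ELOVL6 are shown because they were the genes called up on average, ELOVL6 in a call that rested on SHI1, and their capitals mark every CG, the dinucleotide that DNMT1 methylates, with 24 in TM7SF2 (chr11:65111622-65111921, plus strand) and 20 in ELOVL6 (chr4:110198566-110198865, minus strand). MVK (chr12:109573544-109573843, plus strand), NSDHL (chrX:152830813-152831112, plus strand) and SCD (chr10:100346983-100347282, plus strand) are shown as genes that fell and whose windows hold several CCAAT, with capitals on CCAAT or its complement ATTGG. SREBF2 (chr22:41832855-41833154, plus strand) is shown as the promoter with the sterol regulatory element, in capitals.
TM7SF2: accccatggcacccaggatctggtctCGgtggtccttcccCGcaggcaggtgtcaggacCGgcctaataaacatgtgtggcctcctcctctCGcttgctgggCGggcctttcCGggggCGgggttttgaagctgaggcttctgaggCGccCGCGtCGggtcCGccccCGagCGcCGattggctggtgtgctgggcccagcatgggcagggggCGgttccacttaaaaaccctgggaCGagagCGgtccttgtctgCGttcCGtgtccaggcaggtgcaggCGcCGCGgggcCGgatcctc
ELOVL6: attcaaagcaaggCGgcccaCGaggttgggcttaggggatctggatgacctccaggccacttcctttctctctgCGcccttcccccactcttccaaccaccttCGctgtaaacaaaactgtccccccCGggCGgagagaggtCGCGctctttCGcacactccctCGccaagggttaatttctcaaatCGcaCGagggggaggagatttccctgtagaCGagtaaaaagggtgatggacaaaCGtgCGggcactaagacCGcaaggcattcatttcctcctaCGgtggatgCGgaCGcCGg
MVK: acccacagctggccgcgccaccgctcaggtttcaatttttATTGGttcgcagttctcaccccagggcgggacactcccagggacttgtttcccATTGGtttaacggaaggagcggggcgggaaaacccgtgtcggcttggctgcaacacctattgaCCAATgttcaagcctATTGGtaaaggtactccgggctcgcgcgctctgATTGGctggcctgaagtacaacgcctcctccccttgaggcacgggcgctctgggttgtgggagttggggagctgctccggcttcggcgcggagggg
NSDHL: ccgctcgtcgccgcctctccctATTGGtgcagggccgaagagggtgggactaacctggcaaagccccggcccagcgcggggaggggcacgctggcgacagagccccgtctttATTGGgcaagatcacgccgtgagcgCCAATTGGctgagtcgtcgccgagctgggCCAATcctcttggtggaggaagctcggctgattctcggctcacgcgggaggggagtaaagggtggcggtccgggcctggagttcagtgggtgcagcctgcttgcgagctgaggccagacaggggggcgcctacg
SCD: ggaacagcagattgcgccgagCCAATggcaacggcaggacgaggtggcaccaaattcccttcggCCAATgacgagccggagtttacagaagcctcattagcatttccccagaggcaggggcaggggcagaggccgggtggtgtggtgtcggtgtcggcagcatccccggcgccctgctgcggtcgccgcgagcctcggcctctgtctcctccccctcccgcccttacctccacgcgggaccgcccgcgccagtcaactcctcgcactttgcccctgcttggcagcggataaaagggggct
SREBF2: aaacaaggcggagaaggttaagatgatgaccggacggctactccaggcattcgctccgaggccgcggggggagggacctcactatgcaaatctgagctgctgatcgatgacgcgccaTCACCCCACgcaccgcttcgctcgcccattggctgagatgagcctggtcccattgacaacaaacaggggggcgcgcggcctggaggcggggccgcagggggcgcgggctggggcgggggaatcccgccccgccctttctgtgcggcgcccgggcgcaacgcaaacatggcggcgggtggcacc
MVK and NSDHL each had 5 matches to CCAAT, a pair of which run together in NSDHL, and SCD had 2. TM7SF2 and SREBF2 each had 1 CCAAT, left in lower case, and ELOVL6 had none. Among other genes that fell, MVD and FDPS had 3 CCAAT each, while PMVK and SCAP had none. Of genes not called on average, MSMO1 had 4, while AACS and ME1 had none. The 38 windows of the lipid genes held a median of 28.5 CG. Of genes that fell, MVK had 21 CG, SCD 25, NSDHL 26 and LSS 32. Whether either count goes with the direction of change was not tested. No methylation was measured, and a match to letters is not a bound site.

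The question was whether DNMT1 inhibition shifted lipid synthesis genes, and in which lines. Averaged over the 7 lines, 15 of the 31 genes fell (48.4%), where 28.6% of all genes fell, and 2 rose (6.45%), where 23.2% of all genes rose. The list was chosen with earlier results of these data known, so its shares, here and by line, are descriptions and not a test of the pathway. SCD, the desaturase that makes oleate from stearate, fell most, with an average change of -0.57 ± 0.06 (adjusted p = 9.39e-07), a level 0.67 times that with DMSO. TM7SF2, a sterol reductase late in cholesterol synthesis, rose most, by 0.62 ± 0.09 (adjusted p = 1.75e-05), or 1.53-fold. The median change of the 31 was -0.12 against -0.02 over all genes, and 23 of the 31 changes were below 0 (74.2%) against 53.7% of all genes. Of the 17 genes called on average, 12 were called in each of 35 refits that left out a line or an array, TM7SF2 and 11 of those that fell. With the 7 lines as units, which takes the spread between lines as the error, SCD (adjusted p = 0.0469) and TM7SF2 (adjusted p = 0.0422) were called and no other of the 31, where 7.07% of all genes were. With the 14 arrays of a single replicate number, limma called 0 of all 11676 genes, so that 0 in the list was not particular to it. Of the list, 12 (without replicate 1) or 10 (without replicate 2) had an unadjusted p under 0.05, and the share of all genes was not taken.

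Calls were most numerous in GDM1, MOLM13, SKM1 and THP1. In GDM1 7 genes fell (22.6%, where 20.5% of all genes fell) and 2 rose (13.3% of all genes), a share of falls close to that of all genes, with 19 of the 31 changes below 0. In MOLM13 8 fell (25.8%, where 15.4% of all genes fell) and 1 rose (13.7% of all genes). In SKM1 8 fell (25.8%, where 14% of all genes fell) and 1 rose (14.1% of all genes). In THP1 8 fell (25.8%, where 8.3% of all genes fell) and none rose (5.4% of all genes), and 29 of the 31 changes were below 0. The other lines gave few calls. In SKNO1 1 gene fell (3.12% of all genes) and none rose (2.96% of all genes), although 25 of 31 changes were below 0. In NOMO1 limma called no gene up (4.21% of all genes) or down (7.55% of all genes), and 1 had an unadjusted p under 0.05. In SHI1 1 rose (2.52% of all genes) and none fell (0.899% of all genes), and 23 of 31 changes were above 0. The median changes ran in this order of lines at -0.14, -0.19, -0.22, -0.22, -0.12, 0.05 and 0.13.

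**Figure D1:**
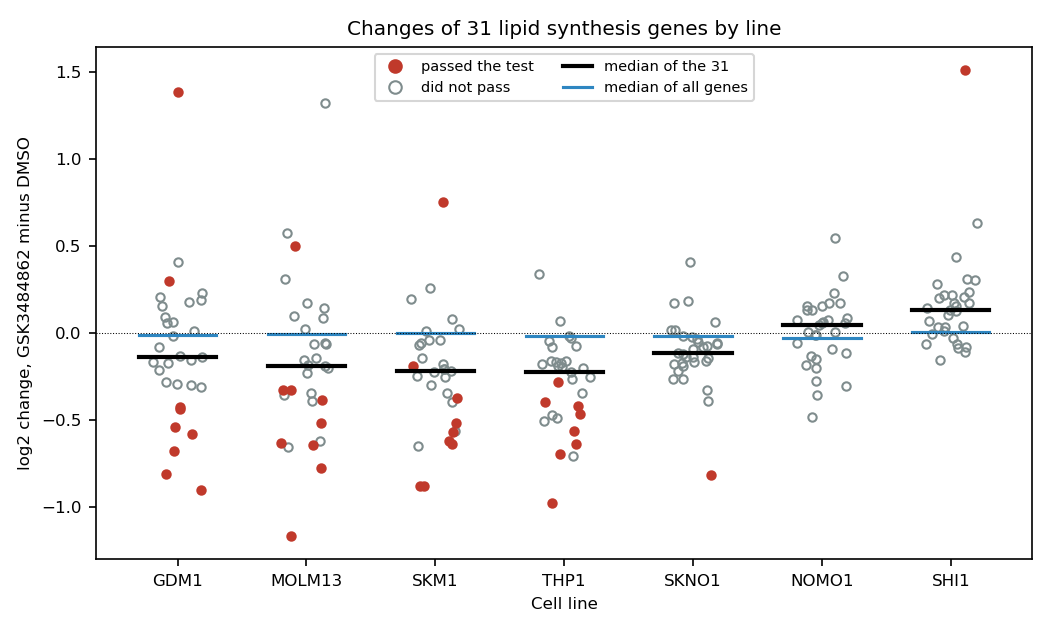
Each point is the log2 change, GSK3484862 minus DMSO, of 1 of the 31 genes in 1 line, filled where it passed the test; the black bar is the median of the 31 and the blue bar the median of all genes. The black bars lie below 0 in GDM1, MOLM13, SKM1, THP1 and SKNO1 and above 0 in NOMO1 and SHI1.

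In all, 37 of 217 pairs of gene and line passed the test (17.1%, where 18% of all pairs did), in 19 genes. Only 3 of them changed by at least 2-fold, where 3.59% of all pairs of gene and line did: TM7SF2 in GDM1, SCD in MOLM13 and ELOVL6 in SHI1. With 2 arrays a group, 15 of the 37 calls held in each of the 4 fits that left out 1 array of their own line. These were TM7SF2, MVK, PMVK, ACAT2 and SCD in GDM1, FASN, SCD, ACLY and AACS in MOLM13, and DHCR7, FASN, SCD and ACACA in SKM1. AACS in SKNO1 and ELOVL6 in SHI1 completed them. None of the 8 THP1 calls held in all 4, and without the second THP1 DMSO array only 1 THP1 call was left. Losing 1 array took several called changes more than 1.5 times closer to 0. SCD in THP1 moved to -0.33 (adjusted p = 0.31) without the first treated array, and FASN in THP1 to -0.23 (adjusted p = 0.373) without the same array. LSS in SKM1 moved to -0.31 (adjusted p = 0.116) without the second DMSO array, and MSMO1 in SKM1 to -0.33 (adjusted p = 0.155) without the first treated array.

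**Figure D2:**
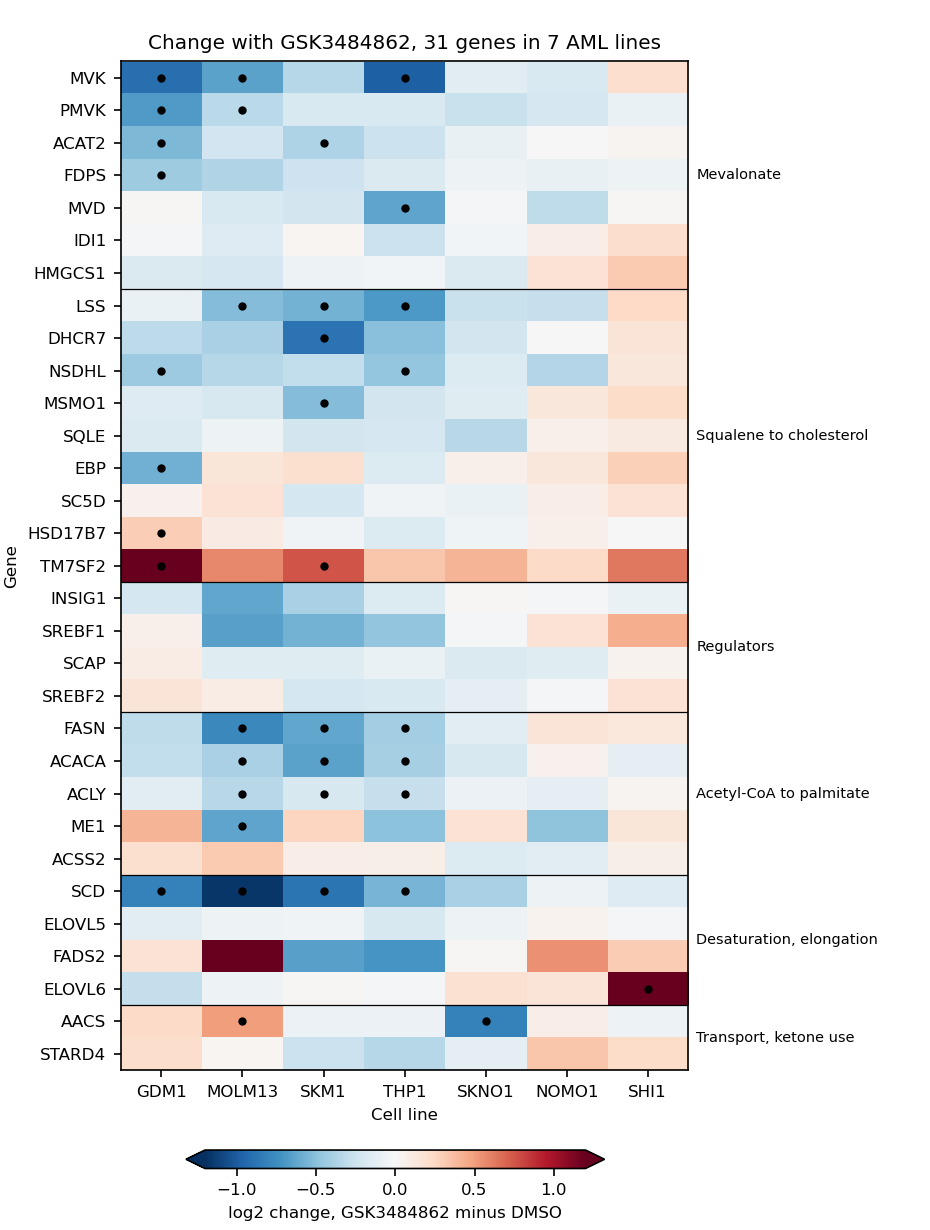
Rows are the 31 genes grouped by role, columns the 7 lines, and colour the log2 change, GSK3484862 minus DMSO; a black dot marks an adjusted p under 0.05. Most dots lie in the 4 left columns, TM7SF2 is red in all 7 lines, and the dot in SHI1 is ELOVL6.

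Of the 7 genes of the mevalonate steps, 5 fell on average and none rose, where 28.6% of all genes fell and 23.2% rose. MVK, the mevalonate kinase (chr12:109573272-109598125), fell most, by an average of -0.43 ± 0.08 (adjusted p = 0.000437). In GDM1 it read 6.29 and 6.09 with GSK3484862, against 7.21 and 6.97 with DMSO, and in THP1 7.66 and 7.54 with GSK3484862, against 8.60 and 8.55 with DMSO. In MOLM13 it read 7.69 and 7.96 with GSK3484862, against 8.39 and 8.55 with DMSO. In these 3 lines the treated arrays lay below both DMSO arrays, and the changes of -0.90, -0.98 and -0.64 passed the test. The values were 7.24 and 7.67 against 7.34 and 8.26 in SKM1, 8.27 and 8.58 against 8.59 and 8.55 in SKNO1 and 8.15 and 8.46 against 8.51 and 8.46 in NOMO1, treated first, with groups that overlapped in SKM1, SKNO1 and NOMO1. In SHI1 they were 8.37 and 8.60 against 8.19 and 8.37, and the change of 0.20 did not pass. The other MVK probe set averaged -0.20 (adjusted p = 0.0917) in a limma fit over all probe sets. It fell in THP1 by -0.91 (adjusted p = 0.026), but its changes of -0.33 in GDM1 and -0.14 in MOLM13 did not pass. PMVK, the next kinase, fell by -0.27 ± 0.04 (adjusted p = 1.84e-05) and its treated arrays lay below both DMSO arrays in all 7 lines, as for 2.57% of all genes. Its fall was largest in GDM1, at -0.68 ± 0.10 (adjusted p = 7.00e-05), and it also fell in MOLM13, by -0.33 (adjusted p = 0.023).

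ACAT2, which joins acetyl-CoA units at the head of the pathway, had an average change of -0.21 ± 0.03 (adjusted p = 0.000117) and fell in GDM1 (-0.54 (adjusted p = 0.000247)) and SKM1 (-0.37 (adjusted p = 0.0063)). FDPS, which makes farnesyl diphosphate, averaged -0.20 ± 0.05 (adjusted p = 0.00325), was below 0 in all 7 lines and fell in GDM1 (-0.42 (adjusted p = 0.0221)). SCD, PMVK and FDPS were the 3 genes that fell on average with a change below 0 in every line, as 9.99% of all genes did. MVD, which makes isopentenyl diphosphate, averaged -0.19 ± 0.07 (adjusted p = 0.0222), with its largest change in THP1, at -0.64 (adjusted p = 0.0224), and without THP1 the average was -0.12 (adjusted p = 0.209). HMGCS1, which makes HMG-CoA, averaged -0.02 ± 0.05 (adjusted p = 0.753), with -0.20 in MOLM13 and 0.31 in SHI1 at the ends. IDI1, the isopentenyl diphosphate isomerase, averaged -0.02 ± 0.07 (adjusted p = 0.808). Neither HMGCS1 nor IDI1 passed in any line.

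Of 9 measured genes from squalene to cholesterol, 4 fell on average and 1 rose, against the same 28.6% and 23.2% of all genes. TM7SF2 (chr11:65111872-65116230) rose. It read 10.09 and 9.91 with GSK3484862, against 8.62 and 8.61 with DMSO in GDM1, and 6.46 and 6.09 with GSK3484862, against 5.44 and 5.61 with DMSO in SKM1. In those lines the changes of 1.38 ± 0.23 (adjusted p = 0.000168), or 2.61-fold, and 0.75 ± 0.23 (adjusted p = 0.0206) passed the test. In MOLM13 its signals were 8.66 and 8.46 against 7.54 and 8.43, in THP1 9.24 and 9.65 against 8.88 and 9.34 and in SKNO1 9.17 and 9.45 against 8.99 and 8.82, treated first. In NOMO1 they were 8.06 and 8.08 against 7.77 and 7.91, and in SHI1 9.06 and 8.81 against 8.22 and 8.38. Treated arrays lay above both DMSO arrays in 6 lines and overlapped them in THP1. TM7SF2 both rose on average and had a change above 0 in all 7 lines, as did 5.99% of all 11676 genes. The gene has a single probe set.

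LSS, the cyclase that makes lanosterol (chr21:46188446-46228774), averaged -0.31 ± 0.05 (adjusted p = 0.000155). In THP1 it read 9.73 and 9.96 with GSK3484862, against 10.40 and 10.68 with DMSO, in SKM1 9.67 and 9.87 against 10.08 and 10.60 and in MOLM13 9.49 and 9.48 against 9.88 and 10.12. Treated arrays were below both DMSO arrays there, and the falls of -0.69, -0.57 and -0.52 passed. In SKNO1 LSS read 11.25 and 11.35 against 11.54 and 11.59, in NOMO1 9.64 and 9.59 against 9.80 and 9.98 and in GDM1 9.73 and 9.64 against 9.78 and 9.75. SHI1 stood opposite, at 9.00 and 9.18 against 8.84 and 8.87, with a change of 0.24 (adjusted p = 0.52).

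DHCR7, the reductase of the last step to cholesterol (chr11:71427287-71449043), averaged -0.31 ± 0.06 (adjusted p = 0.000846). In SKM1 it read 9.30 and 9.61 with GSK3484862, against 10.10 and 10.58 with DMSO, a fall of -0.88 ± 0.17 (adjusted p = 0.00105). The signals were 9.97 and 10.10 against 10.35 and 10.34 in GDM1, 9.80 and 9.81 against 10.00 and 10.39 in MOLM13 and 8.77 and 8.95 against 9.12 and 9.61 in THP1, treated first, below both DMSO arrays in each without passing the test. In SKNO1 they were 11.14 and 11.08 against 11.37 and 11.29, in NOMO1 10.65 and 10.89 against 10.64 and 10.88 and in SHI1 10.89 and 10.87 against 10.71 and 10.74. Only in SHI1 did the treated arrays lie above both DMSO arrays.

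NSDHL, a dehydrogenase that helps strip methyl groups from the sterol ring (chrX:152831063-152869729), averaged -0.28 ± 0.05 (adjusted p = 0.000491). In GDM1 it read 8.45 and 8.43 with GSK3484862, against 9.00 and 8.76 with DMSO, and in THP1 9.44 and 9.37 with GSK3484862, against 9.77 and 9.97 with DMSO, and both falls passed the test, at -0.44 and -0.46. Neither held in all fits without 1 of the line's arrays. The signals in MOLM13 were 9.45 and 9.72 against 9.90 and 9.96, in SKM1 9.38 and 9.59 against 9.58 and 9.99 and in SKNO1 9.70 and 9.68 against 9.80 and 9.91, treated first. In NOMO1 they were 9.36 and 9.35 against 9.52 and 9.90, and in SHI1 9.53 and 9.76 against 9.44 and 9.58. The groups overlapped in SKM1 and SHI1. The other NSDHL probe set, in a limma fit over all probe sets, fell in GDM1 (-0.38, adjusted p = 0.00306) and MOLM13 (-0.30, adjusted p = 0.0195). Its change in THP1 (-0.17, adjusted p = 0.233) did not pass.

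SQLE, the squalene epoxidase, averaged -0.12 ± 0.04 (adjusted p = 0.0247) and passed in no single line. Its average was -0.11 (adjusted p = 0.0729) without GDM1, -0.10 (adjusted p = 0.0847) without THP1 and -0.08 (adjusted p = 0.163) without SKNO1. MSMO1, an oxidase of the same demethylation as NSDHL, fell in SKM1 (-0.52 (adjusted p = 0.0113)), and its average of -0.13 ± 0.05 (adjusted p = 0.0602) did not pass. EBP, a sterol isomerase, fell in GDM1 by -0.58 (adjusted p = 0.0033), with 0.28 in SHI1 and an average of 0.01 ± 0.05 (adjusted p = 0.88). Another EBP probe set had an average of -0.14 that passed a fit over all probe sets. HSD17B7, a ketosteroid reductase, rose in GDM1 by 0.30 (adjusted p = 0.0247), a call lost when any of the 4 GDM1 arrays was left out. Its probe set name marks possible cross-hybridisation. SC5D, a sterol desaturase, lay between -0.21 in SKM1 and 0.17 in SHI1 and passed nowhere.

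**Figure D3:**
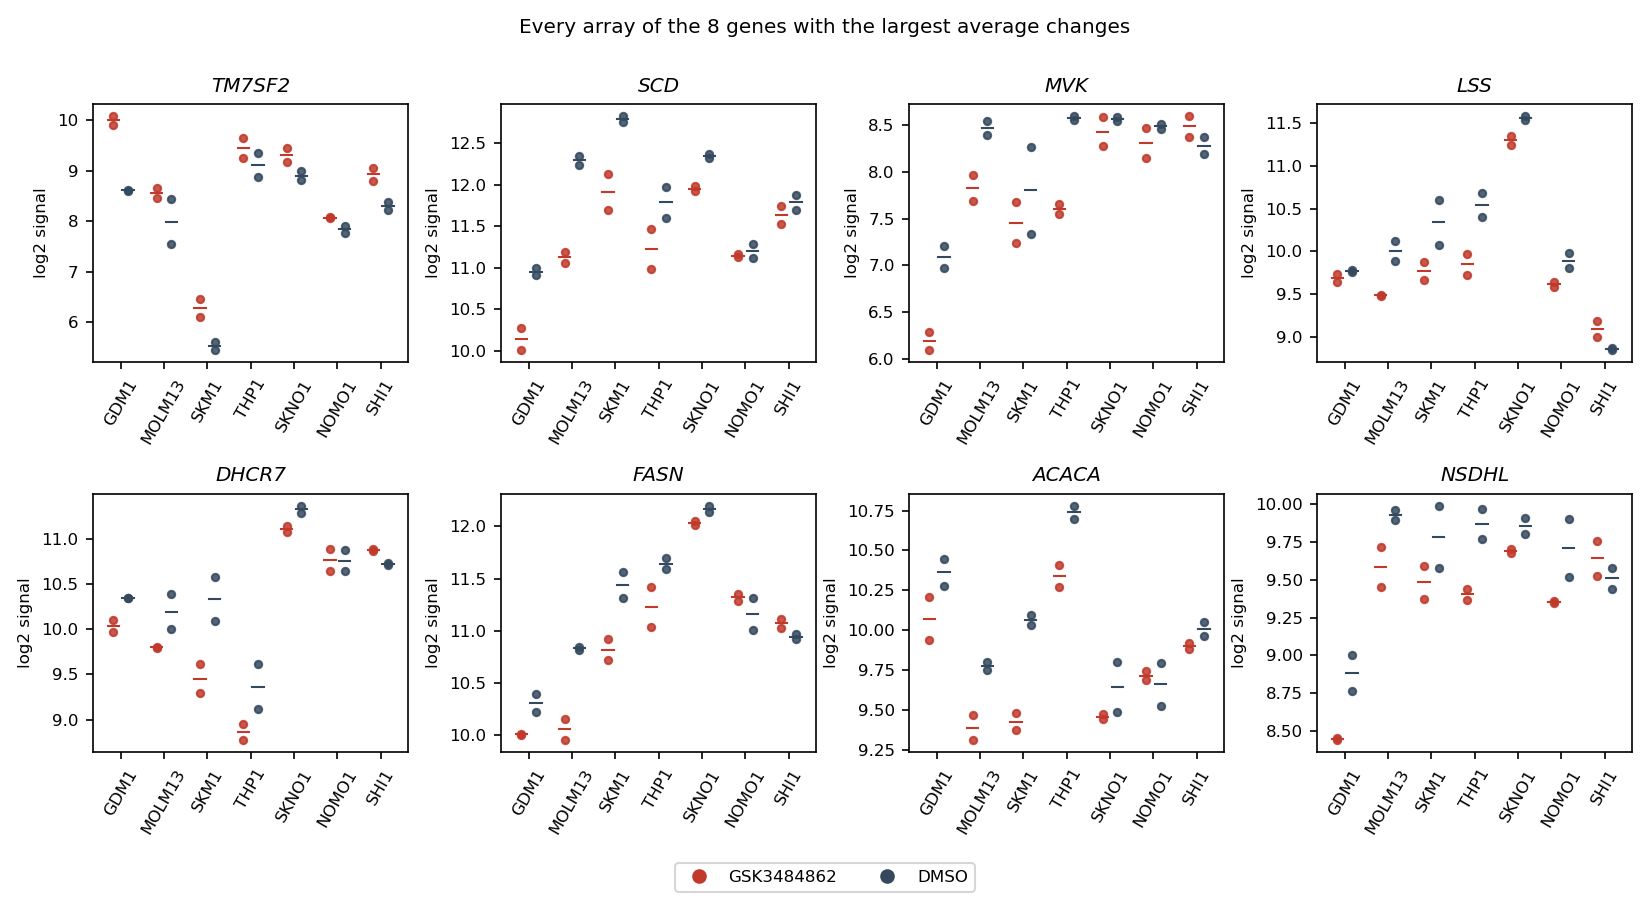
Panels show the 8 genes with the largest average changes, each point 1 array's log2 signal and each bar the mean of 2 arrays, with GSK3484862 (red) left of DMSO (dark) in every line. TM7SF2 is higher with GSK3484862 in every line by its means, and SCD is lower in every line by its means, least in NOMO1 and SHI1.

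Of the 4 regulators only SCAP was called on average, where 28.6% of all genes fell and 23.2% rose. By its brightest probe set no regulator passed in a single line, where 18% of all pairs of gene and line passed. SCAP averaged -0.08 ± 0.03 (adjusted p = 0.0197), a small change that no longer passed without MOLM13, SKM1, SKNO1 or NOMO1, where the average lay at -0.07 (adjusted p = 0.0808), -0.07 (adjusted p = 0.0636), -0.06 (adjusted p = 0.0512) and -0.07 (adjusted p = 0.0714). INSIG1, itself a known SREBP target, averaged -0.21 ± 0.10 (adjusted p = 0.104) and reached -0.62 (adjusted p = 0.105) in MOLM13. Without SKM1, whose INSIG1 duplicates were the widest, the INSIG1 average was -0.18 (adjusted p = 0.0381). SREBF1 averaged -0.15 ± 0.09 (adjusted p = 0.204). Its signals were 7.93 and 8.17 against 8.48 and 8.93 in MOLM13, 7.67 and 8.23 against 8.22 and 8.82 in SKM1 and 7.94 and 8.12 against 7.47 and 7.72 in SHI1, treated first, lower in MOLM13 and higher in SHI1 without overlap, and none passed. SREBF2 averaged -0.01 ± 0.06 (adjusted p = 0.865), within -0.21 and 0.18 in every line by its brightest probe set. Another SREBF2 probe set, in a limma fit over all probe sets, fell in THP1 by -0.48 (adjusted p = 0.0273). Its change of 0.36 in SHI1 did not pass, and the remaining SREBF2 probe set passed in no line.

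Of the 5 genes from acetyl-CoA to palmitate, 3 fell on average and none rose (28.6% and 23.2% of all genes). FASN, the fatty acid synthase (chr17:82078338-82098236), averaged -0.28 ± 0.05 (adjusted p = 0.000112). It read 10.16 and 9.95 with GSK3484862, against 10.81 and 10.85 with DMSO in MOLM13, 10.72 and 10.92 against 11.32 and 11.56 in SKM1 and 11.03 and 11.42 against 11.59 and 11.70 in THP1. The falls were -0.78 (adjusted p = 0.000207), -0.62 (adjusted p = 0.00138) and -0.42 (adjusted p = 0.036), with no overlap of groups. In GDM1 FASN read 10.02 and 10.00 against 10.40 and 10.22 and in SKNO1 12.05 and 12.01 against 12.14 and 12.20, both lower without passing. In NOMO1 it read 11.35 and 11.29 against 11.00 and 11.32, which overlapped, and in SHI1 11.03 and 11.12 against 10.97 and 10.92, which was higher without passing.

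ACACA, the acetyl-CoA carboxylase of the cytosol (chr17:37084992-37406836), averaged -0.28 ± 0.04 (adjusted p = 4.33e-05) and fell in the same 3 lines as FASN. It read 9.37 and 9.48 with GSK3484862, against 10.03 and 10.10 with DMSO in SKM1, 9.31 and 9.47 against 9.80 and 9.75 in MOLM13 and 10.27 and 10.41 against 10.70 and 10.78 in THP1. The falls were -0.64, -0.39 and -0.40. In GDM1 it read 9.94 and 10.21 against 10.45 and 10.27, in SKNO1 9.47 and 9.44 against 9.80 and 9.49, in NOMO1 9.68 and 9.74 against 9.52 and 9.79 and in SHI1 9.92 and 9.88 against 10.05 and 9.96. Only NOMO1 had overlapping groups and a change above 0. ACLY, which splits citrate into acetyl-CoA, averaged -0.16 ± 0.02 (adjusted p = 6.75e-05) and also fell in MOLM13 (-0.33), THP1 (-0.28) and SKM1 (-0.19). By their brightest probe sets, all 3 enzymes of the main route from citrate to palmitate thus fell in MOLM13, SKM1 and THP1. Only FASN and ACLY in MOLM13 and FASN and ACACA in SKM1 held in all 4 fits without 1 array of the line. The other ACACA probe set, in a limma fit over all probe sets, fell in GDM1 (-0.67) and MOLM13 (-0.54). Its changes in SKM1 (-0.36, adjusted p = 0.0651) and THP1 (-0.33, adjusted p = 0.134) did not pass. ACSS2, which makes acetyl-CoA from acetate, averaged 0.06 ± 0.05 (adjusted p = 0.333) and passed in no line. ME1, a source of NADPH for the synthase, averaged -0.09 ± 0.09 (adjusted p = 0.419) and fell in MOLM13 by -0.63 (adjusted p = 0.0469), which was -0.40 (adjusted p = 0.329) without the second treated array.

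Of 4 measured genes of desaturation and elongation, 2 fell on average and 1 rose (28.6% and 23.2% of all genes). SCD (chr10:100347233-100364826) fell in 4 lines, more than any other of the 31. It read 11.06 and 11.19 with GSK3484862, against 12.24 and 12.35 with DMSO in MOLM13, a change of -1.17 ± 0.16 (adjusted p = 4.43e-05) or 0.45 times the DMSO level. In SKM1 it read 11.70 and 12.13 against 12.76 and 12.83, in GDM1 10.27 and 10.00 against 10.99 and 10.91 and in THP1 10.99 and 11.46 against 11.60 and 11.97, treated first. These falls were -0.88, -0.81 and -0.56, each with all treated arrays below the DMSO arrays. In SKNO1 it read 11.92 and 11.99 against 12.32 and 12.37, lower without passing (adjusted p = 0.191). NOMO1 at 11.16 and 11.13 against 11.12 and 11.29 and SHI1 at 11.53 and 11.74 against 11.88 and 11.70 had overlapping groups. The other 3 SCD probe sets also fell on average, and the 4 ran from -0.57 to -0.92.

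ELOVL6, which lengthens palmitate to stearate, averaged 0.22 ± 0.09 (adjusted p = 0.0437), and this rested on SHI1, since the average without SHI1 was -0.000321 (adjusted p = 0.996). The average passed in only 9 of the 35 refits, and the other 2 ELOVL6 probe sets averaged -0.04 and -0.06 without passing. In SHI1 it read 6.44 and 5.39 with GSK3484862, against 4.44 and 4.36 with DMSO, a change of 1.51 ± 0.23 (adjusted p = 0.000732) or 2.85-fold. The treated duplicates stood far apart, and without the first treated array it was 0.99 (adjusted p = 0.00415). The other 2 probe sets changed in SHI1 by 0.30 and 0.02 and did not pass. ELOVL5, an elongase of polyunsaturated fatty acids, averaged -0.07 ± 0.03 (adjusted p = 0.0333), a small change that passed in 22 of the 35 refits and in none of the single lines. FADS2, which desaturates polyunsaturated fatty acids, averaged 0.15 ± 0.25 (adjusted p = 0.648). Its MOLM13 signals were 6.91 and 6.18 with GSK3484862, against 3.49 and 6.96 with DMSO, and the spread of these DMSO arrays widened the error in every line. Without the first MOLM13 DMSO array the FADS2 average was -0.10 (adjusted p = 0.396), and without the second it was 0.39 (adjusted p = 0.0029), so that its direction turned on which of the pair was kept.

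The genes of sterol transport and ketone body use were STARD4 and AACS. STARD4, which carries cholesterol between membranes, averaged 0.01 ± 0.07 (adjusted p = 0.931) and passed in no line. AACS, which activates acetoacetate for lipid synthesis, moved in opposite directions in a pair of lines. It read 8.88 and 9.12 with GSK3484862, against 9.71 and 9.93 with DMSO in SKNO1, a fall of -0.82 ± 0.10 (adjusted p = 7.10e-05), the only call in that line. In MOLM13 it read 10.30 and 10.08 with GSK3484862, against 9.69 and 9.68 with DMSO, a rise of 0.50 ± 0.10 (adjusted p = 0.00139). The average of -0.03 ± 0.04 (adjusted p = 0.54) became 0.10 (adjusted p = 0.0318) without SKNO1 and -0.12 (adjusted p = 0.0297) without MOLM13.

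**Figure D4:**
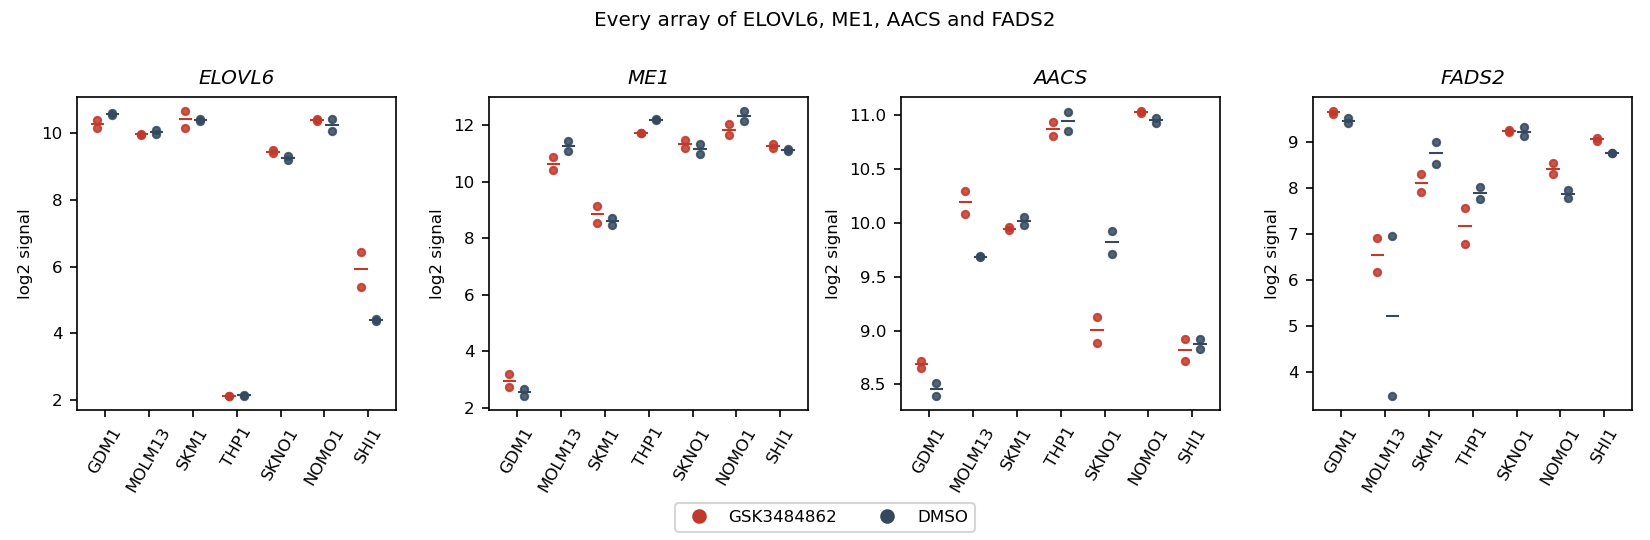
Each point is 1 array's log2 signal and each bar the mean of 2 arrays, with GSK3484862 (red) left of DMSO (dark) in every line. ELOVL6 is at the floor in THP1 and higher with GSK3484862 in SHI1, ME1 is near the floor in GDM1, AACS moves up in MOLM13 and down in SKNO1, and the FADS2 DMSO arrays of MOLM13 lie far apart.

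Whether the lines differed in response was tested with a moderated F-test of the 7 changes. It called 10 of the 31 genes, or 32.3%, where 37.5% of all genes were called, a share below that background. AACS had the smallest adjusted p, 0.000108, followed by FASN (0.0027), ELOVL6 (0.00518) and SCD (0.00747). TM7SF2 did not pass this test (adjusted p = 0.0966). Against the mean of the other 6 lines, 14 of the 217 pairs of gene and line differed, or 6.45%, where 9.7% of all pairs did. GDM1 held 5 of them, with TM7SF2 0.89 ± 0.25 (adjusted p = 0.0143) and EBP -0.69 ± 0.15 (adjusted p = 0.00251) the largest. SCD and FASN fell further in MOLM13 than elsewhere, by -0.69 ± 0.17 (adjusted p = 0.0143) and -0.58 ± 0.14 (adjusted p = 0.00911). DHCR7 and ACACA fell further in SKM1, by -0.67 ± 0.19 (adjusted p = 0.0257) and -0.42 ± 0.12 (adjusted p = 0.0338). LSS in SHI1 differed from the other lines by 0.64 ± 0.15 (adjusted p = 0.0278) and FASN in NOMO1 by 0.51 ± 0.14 (adjusted p = 0.0339), though neither change passed within its line. None of the 14 pairs was in THP1.

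DMSO levels describe the lines without the inhibitor. All 31 genes differed between lines in the F-test of DMSO levels, as did 97% of all genes. The highest line exceeded the lowest by 0.44 for ACLY up to 9.78 for ME1, with a median of 1.47 for the 31 genes and 1.68 for all genes. In 6 genes the range was at least 2, where 41.3% of all genes had such a range. ME1 was near the floor in GDM1, at 2.55 ± 0.18 (SD, n = 2), with 8.60 ± 0.19 in SKM1 and 11.13 to 12.33 in the other lines. ELOVL6 was at the floor in THP1, at 2.15 ± 0.02, low in SHI1 at 4.40 ± 0.06 and between 9.25 and 10.55 elsewhere. A second probe set of each gene gave the same low lines, with DMSO means of 2.13 for ME1 in GDM1, and 2.70 in THP1 and 2.73 in SHI1 for ELOVL6.

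TM7SF2 was lowest in SKM1, at 5.52 ± 0.12, and between 7.84 and 9.11 in the other lines. LSS was highest in SKNO1, at 11.56 ± 0.03, and lowest in SHI1, at 8.86 ± 0.02. AACS was highest in NOMO1, at 10.95 ± 0.03, beside 10.94 ± 0.12 in THP1, which overlapped it, and lowest in GDM1, at 8.45 ± 0.09. FADS2 ran from 5.22 ± 2.45 in MOLM13, whose arrays disagree, to 9.46 ± 0.08 in GDM1. THP1 had the highest DMSO level of 12 of the 31 genes (38.7%), where it was highest for 14.7% of all genes. In 7 of these 12 the THP1 duplicates overlapped those of the next line. SHI1 was highest for none of the 31 genes, where it was highest for 12.6% of all genes.

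**Figure D5:**
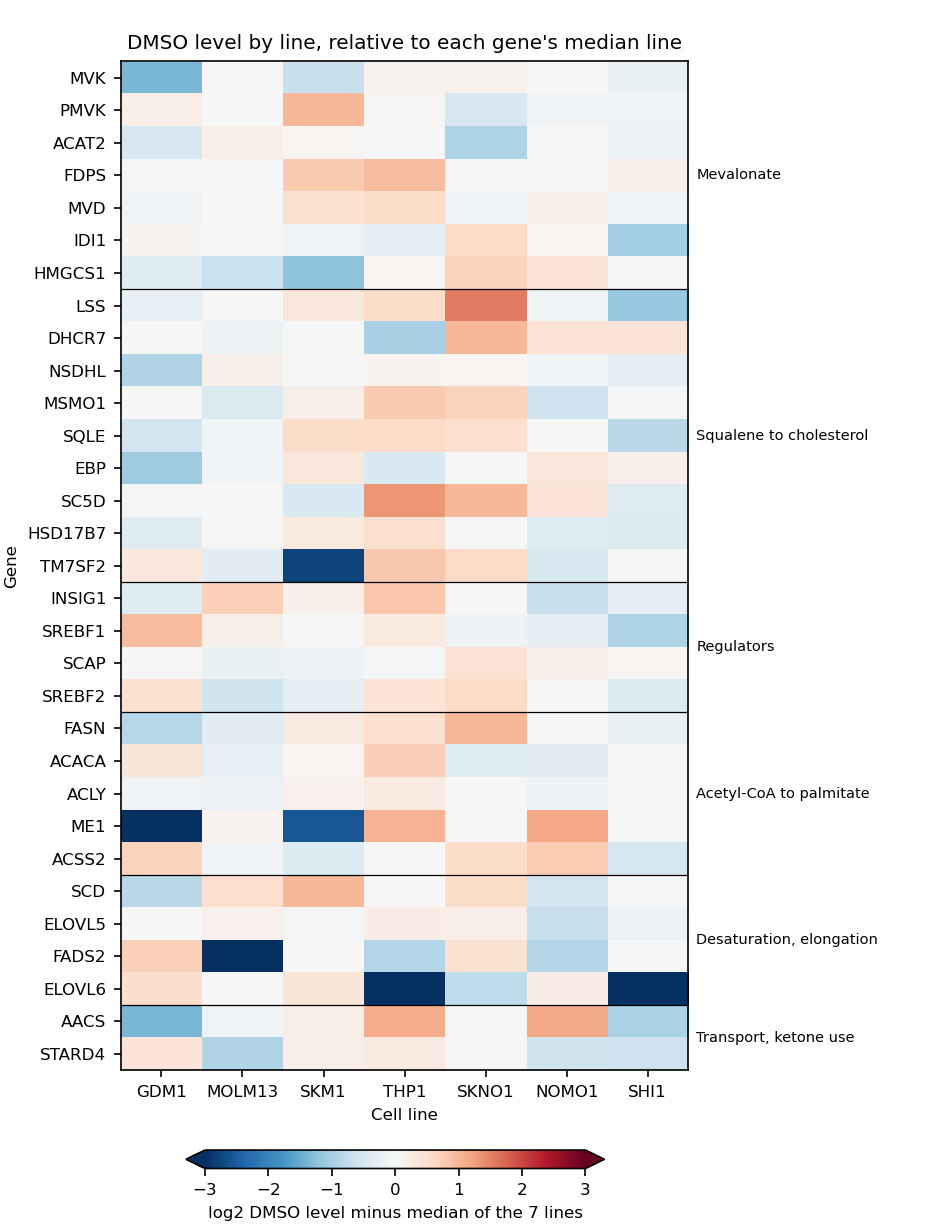
Colour is the log2 DMSO level of each gene in each line minus that gene's median over the 7 lines, cut off at 3 either way. The darkest cells are ME1 in GDM1, ELOVL6 in THP1 and SHI1, and FADS2 in MOLM13, all low, followed by TM7SF2 and ME1 in SKM1.

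Genes around the pathway were read from 5 further lists, each to be set against the 28.6% of all genes that fell on average, the 23.2% that rose and their median of -0.02. Of 16 measured genes for other sterol and isoprenoid products, 10 fell on average and 1 rose, with a median of -0.10. NUS1, a subunit of the enzyme that makes dolichol precursors, changed by -0.30, PDSS1 of ubiquinone synthesis by -0.23 and DPAGT1 of dolichol-linked sugar synthesis by -0.23. Of 16 further genes of SREBP control, 5 fell and 2 rose, among them MBTPS2, the protease that frees SREBP in the membrane, at -0.31. Of 16 genes of sterol uptake and efflux 5 rose and 2 fell, with the sterol-regulated gene TMEM97 at -0.50 and the scavenger receptor CD36 at 0.78. Of 24 further genes of fatty acid synthesis 6 rose and 7 fell, and ACACB, the carboxylase of mitochondria, rose by 0.71 on average while ACACA fell. Of 19 genes of fatty acid oxidation 9 rose and 4 fell, with DECR1, a reductase for unsaturated fatty acids, at 0.29.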

How the data were processed

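The authors deposited 1 table of log2 signals for 27306 probe sets on 28 arrays; background correction, summarisation and normalization were not given in the sources used here, and the submitters' processing notes name limma without a role. Array medians of 8.33 to 8.51 and a common floor of 2.13 were read from the deposited log2 values, which were used unchanged. Line, treatment and replicate came from the sample labels.

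Platform annotation gave 22580 probe sets 1 symbol, 1098 several and 3628 none. Only the first kind was named, with the highest-mean probe set per gene, which left 11676 genes. limma 3.58.1 in R 4.3.3 (lmFit, eBayes) was fitted to 14 groups of line and treatment (14 residual and 2.28 prior degrees of freedom). Contrasts were each line's change, their mean, moderated F-tests of changes and of DMSO levels, and each line against the other 6. P-values were two-sided with Benjamini-Hochberg adjustment. The error is the spread between duplicates, which the series design calls biological, so the p of the average concerns these 7 lines. The number of arrays limits the precision. The members and lists were chosen with earlier results of these data known. Every array is given for the 8 called genes with the largest average change and for called changes of at least 2-fold, and up to 3 called genes per further list were eligible to be named; the array values of AACS, FADS2 and SREBF1 and the ME1 levels were chosen after their values were seen. The fit to 14 groups was first checked on simulated data, for its average and single-line contrasts only. The other contrasts and the alternative fits were not checked in this way. Alternatives are given at the end. RefSeq promoter windows of 300 bases came from GRCh38.p14. Some other genes of the pathway are not reported here.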

Additional observations from a re-analysis of the deposited data

Results flagged for a closer look

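The changes of 10 genes differed between the 7 lines in the moderated F-test, with adjusted p-values of 0.000108 for AACS, 0.0027 for FASN, 0.00518 for ELOVL6, 0.00747 for SCD, 0.0171 for ACAT2, 0.0173 for LSS, 0.0217 for EBP, 0.0369 for ACACA, 0.0374 for DHCR7 and 0.0411 for MVK. These are the genes whose response to GSK3484862 depended on the line beyond the spread between duplicates. The share of 10 in 31 lies below the 37.5% of all genes called.

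Set against the mean change of the other 6 lines, 14 pairs of gene and line differed. In GDM1 the log2 difference was 0.89 for TM7SF2, -0.47 for PMVK, 0.32 for HSD17B7, -0.69 for EBP and -0.39 for ACAT2. In MOLM13 it was -0.58 for FASN, -0.69 for SCD and 0.62 for AACS. In SKM1 it was -0.67 for DHCR7 and -0.42 for ACACA. The difference was -0.92 for AACS in SKNO1, 0.51 for FASN in NOMO1, 0.64 for LSS in SHI1 and 1.51 for ELOVL6 in SHI1. The ELOVL6 difference comes from 1 of 3 probe sets, with treated signals of 6.44 and 5.39 against DMSO signals of 4.44 and 4.36, and its cause was not tested.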

How the results depend on the processing

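The numbers of genes called are given here as down on average 15, up on average 2, GDM1 9, MOLM13 9, SKM1 9, THP1 8, SKNO1 1, NOMO1 0, SHI1 1, differing between lines 10, pairs of gene and line against the other lines 14, and genes of the 5 further lists 51. Leaving out each array in turn gave 14 to 16 down, 1 to 2 up, 6 to 10 in GDM1, 5 to 12 in MOLM13, 5 to 13 in SKM1, 1 to 10 in THP1, 1 to 2 in SKNO1, 0 to 2 in NOMO1, 1 in SHI1, 6 to 13 differing, 10 to 18 pairs and 43 to 52 of the further lists. With the mean of all probe sets 1 gene rose on average and 0 were called in SHI1. A further setting left out probe sets whose names end in _x_at, the mark of possible cross-hybridisation, or in _s_at. Only 18 of the genes were then left, of which 7 fell and 1 rose on average. In it 3 were called in GDM1, 4 in MOLM13, 4 in SKM1, 2 in THP1 and 0 in SKNO1, with 5 differing and 5 pairs. All 18 differed in DMSO level. TM7SF2, SCD, MVK, DHCR7, FASN, PMVK, MVD, ACAT2, ACLY, AACS, HSD17B7, SC5D and ACSS2 were not among the 18. All their probe sets carry such an ending, so this setting does not check them. The filter on dim probe sets left out MVD and kept 30. The deviations of arrays with the same replicate number correlated at 0.31 to 0.39 in SKM1, SKNO1 and NOMO1 and at -0.10 to 0.09 in the other 4 lines, so that a pairing by number was not shown in every line and was not assumed. With the number as a replicate block term SKNO1 had 2 calls, and with line by number as replicate block MOLM13 had 14, THP1 13, SKNO1 2, NOMO1 1, SHI1 2 and the pairs 33. At an adjusted p under 0.01, 1 rose on average, MOLM13 had 4, THP1 2, 4 genes differed, 7 pairs differed and 33 genes of the further lists were called. Asking for 2-fold left 0 down and 0 up on average, 1 in GDM1, 1 in MOLM13, 0 in SKM1, THP1 and SKNO1, 5 differing, 1 pair and 0 of the further lists. Without GDM1 8 pairs differed, without SKM1 22, without NOMO1 1 gene rose, and without SHI1 1 gene rose and 4 differed. Fitted on its own 4 arrays, GDM1 had 5, MOLM13 3, SKM1 0, THP1 0, SKNO1 0 and SHI1 0. With lines as units 1 fell, 1 rose and 6 genes of the further lists were called. With replicate 1 or 2 left out the counts were 0, as they were over all genes. Shares of all genes are not given beside the other alternative counts of this section. A shift in those counts therefore cannot be read as particular to the lipid genes. AACS changed sign without SKNO1, to 0.10, and ELOVL6 without SHI1, to -0.000321. The causes of these shifts were not tested, beyond the fewer arrays or genes that some settings use. Values at the floor of 2.13 have no order, which limits changes of ELOVL6 in THP1.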

Other observations

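ECI2, an isomerase of unsaturated fatty acid breakdown, changed by 2.73 in MOLM13 and 2.41 in SHI1, against -1.11 in SKM1 and -0.97 in GDM1. PDK4, a kinase that restrains pyruvate use, averaged 0.39 with DMSO levels of 2.13 to 6.47, so that in several lines it sat at or near the floor. In SKM1 ELOVL4, an elongase of very long fatty acids, rose by 3.26 and ACSL6, a fatty acyl-CoA ligase, by 3.83, while in the other lines the changes lay between -0.06 and 0.22 for ELOVL4 and between -0.69 and 0.10 for ACSL6. FABP4, a fatty acid carrier of adipocytes and macrophages, rose by 4.31 in SKM1. NR1H3, the sterol-sensing nuclear receptor LXR alpha, averaged -0.42, with 0.91 in GDM1 and -1.37 in SKM1. APOC1, an apolipoprotein, averaged 0.32, and FBXW7, a ligase subunit that marks SREBP for breakdown, averaged -0.28.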
